A study of Homo sapiens with 8 samples.

Results

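This section describes 8 genes of the BCL2 family in AGS cells, an established line derived from a human gastric adenocarcinoma: the guardians MCL1, BCL2, BCL2L1, BCL2L2 and BCL2A1, which hold back cell death, and the effectors BAX, BAK1 and BOK, which carry it out. The members were chosen by symbol, and every probe set that the platform annotation assigns to 1 of these genes alone was taken, which gave 30 probe sets of 44988 and 8 genes of 18132. A probe set is a group of short probes read together as 1 value. Messenger RNA had been measured on 8 Affymetrix arrays, 4 from control AGS cells and 4 from AGS cells given podofilox (podophyllotoxin, 3.4 nM) over 72 hours. Podofilox is a tubulin-binding compound that keeps microtubules from forming. All cells grew in medium with serum and antibiotics. The labels do not state whether control cells received the drug's solvent, how long they were cultured, or whether the replicates were separate cultures. The p-values thus take up only the variation among these arrays, and that variation may be technical. The RNA came from whole cultures, and more mRNA per cell cannot be told apart from more cells that hold it.

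BCL2 family proteins decide whether the outer membrane of mitochondria stays closed. BAX and BAK1 proteins can assemble into pores that let cytochrome c out, which starts the caspase cascade, and the guardians bind and restrain them until BH3-only proteins occupy the guardians. MCL1 protein is short-lived and is known to be degraded while cells are held in mitosis, as they are by drugs that disturb microtubules, so its mRNA level and its protein level can differ. The arrays measured mRNA only.

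The arrays were alike in overall level, with medians from 6.39 to 6.45. In control cells the 7 epithelial markers ran from 6.04 (KRT7) to 13.28 (KRT19), with KRT8 at 13.16, EPCAM at 12.78 and CDH1 at 7.41. The 4 measured immune markers ran from 3.62 (PTPRC) to 7.22 (CD68). The 5 fibroblast markers ran from 3.15 to 6.02 and the 5 endothelial markers from 4.72 to 6.93. The summed level of the 7 epithelial markers ran from 77.9 to 78.4 in control cells and from 79.1 to 79.4 with podofilox, where CLDN4 rose by 0.50 (SE 0.037) and none of the 6 others passed the test by limma. Summed levels overlapped for 5 fibroblast markers (21.7 to 22.6 and 22.0 to 23.0), 4 immune markers (20.4 to 21.0 and 20.8 to 21.3) and 5 endothelial markers (28.3 to 30.1 and 28.5 to 29.3). Of these, CD68 rose by 0.28 (SE 0.065) and CDH5 fell by 0.44 (SE 0.11), a call lost when its 2 probe sets were averaged (adjusted p = 0.350 by limma). Their part in the members' values was not tested.

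Levels and differences are log2 values throughout, with differences taken as podofilox minus control, so that 1 unit is a doubling. The words rose and fell are kept for a limma p (two-sided, Benjamini-Hochberg adjusted) under 0.05. For member probe sets the adjustment ran over all 44988 single-gene probe sets. For genes, read from their brightest probe set or the mean of their probe sets, it ran over all 18132 genes. Of the 30 member probe sets, 10 rose and 1 fell, where 7.83% of all single-gene probe sets rose and 10.2% fell, 18% in either direction. The probe sets that rose belonged to MCL1 (3 of 6), BCL2L1 (3 of 3), BAK1 (3 of 5) and BCL2L2 (1 of 3), and the 1 that fell belonged to BOK (1 of 3). None of the 6 BCL2, 2 BCL2A1 and 2 BAX probe sets passed the test by limma, where 1 of these 10, a BCL2A1 probe set, had an unadjusted p under 0.05. All differences were small, from -0.36 (BOK) to 0.47 (MCL1).

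**Figure D1:**
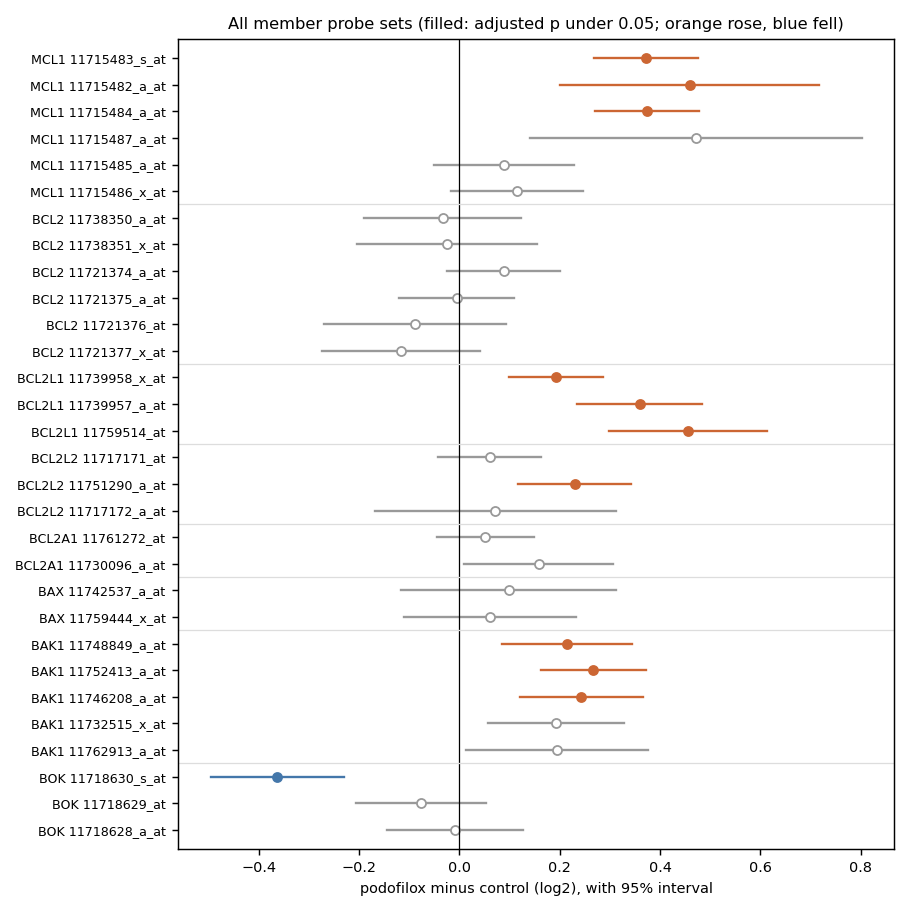
Difference between podofilox and control (log2, horizontal axis) with its 95% interval for each of the 30 member probe sets, in order of brightness within a gene. Filled points passed the test, 10 of them to the right of 0 and 1, BOK 11718630_s_at, to the left.

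Promoters of members are shown as a description of sequence. No window was available for MCL1 and BCL2L2, which had probe sets that rose, so members that moved and members that did not cannot be compared in full. The table of RefSeq start sites used here (GRCh38.p14) was matched to 6 of the 8 members, BCL2, BCL2L1, BCL2A1, BAX, BAK1 and BOK, and the 250 bases before the start were searched on both strands for the motifs named here. The BCL2L1 windows lie at chr20:31723964-31724213 and chr20:31722869-31723118 (minus strand), the BAK1 window at chr6:33580277-33580526 (minus strand), the BOK window at chr2:241558495-241558744 (plus strand) and the BAX window at chr19:48954625-48954874 (plus strand). Sequences run 5′ to 3′ toward the start site, and capitals mark the E-box CACGTG, the GC box GGGCGG or its complement CCGCCC, and the TATA box TATAAA.
BCL2L1, farther window: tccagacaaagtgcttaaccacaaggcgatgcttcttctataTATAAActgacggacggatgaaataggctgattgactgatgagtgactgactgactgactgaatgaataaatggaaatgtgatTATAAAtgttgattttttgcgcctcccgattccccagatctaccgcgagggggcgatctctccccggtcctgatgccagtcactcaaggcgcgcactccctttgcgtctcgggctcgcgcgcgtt
BCL2L1, nearer window: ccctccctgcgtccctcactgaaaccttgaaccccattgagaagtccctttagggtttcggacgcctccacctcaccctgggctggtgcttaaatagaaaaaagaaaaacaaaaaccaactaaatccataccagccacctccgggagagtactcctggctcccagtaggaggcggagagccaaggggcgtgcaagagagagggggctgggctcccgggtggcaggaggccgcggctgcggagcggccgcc
BAK1: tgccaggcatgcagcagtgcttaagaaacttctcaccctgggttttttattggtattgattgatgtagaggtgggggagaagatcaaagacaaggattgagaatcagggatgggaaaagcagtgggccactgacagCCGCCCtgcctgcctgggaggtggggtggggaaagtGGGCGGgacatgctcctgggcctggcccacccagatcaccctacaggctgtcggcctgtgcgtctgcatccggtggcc
BOK: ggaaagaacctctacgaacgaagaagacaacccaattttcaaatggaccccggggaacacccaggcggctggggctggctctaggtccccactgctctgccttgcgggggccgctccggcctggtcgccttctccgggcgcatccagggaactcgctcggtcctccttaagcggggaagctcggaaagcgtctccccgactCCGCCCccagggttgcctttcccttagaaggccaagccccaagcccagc
BAX: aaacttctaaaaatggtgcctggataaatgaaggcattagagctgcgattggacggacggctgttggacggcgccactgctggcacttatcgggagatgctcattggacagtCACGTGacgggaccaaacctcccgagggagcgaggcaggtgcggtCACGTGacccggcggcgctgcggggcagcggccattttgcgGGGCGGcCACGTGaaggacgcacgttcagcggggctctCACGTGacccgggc
The BAX window held 4 E-boxes, the site of MYC-MAX and other helix-loop-helix factors, 138, 93, 45 and 14 bases before the start. At least 1 E-box was found in 6.34% of the 35116 windows of this length, and 4 or more in 5 windows (0.0142%). A GC box, in 42.6% of all windows, was present in BAX, BAK1 (2 of them) and BOK. The farther BCL2L1 window held 2 TATA boxes, a motif in 10.7% of windows, and the nearer one held none of the motifs searched. A p53 half-site, in 5.57% of windows and not capitalised, began 73 bases before the BAK1 start and overlaps the nearer GC box by its first base. The cyclic AMP response element TGACGTCA (1.65% of windows), the C/EBP-ATF element TGATGNAA (3.14%) and a form of the NF-kB site (1.73%) were absent from these 5 windows. The windows of BCL2 and BCL2A1 were also searched and are not printed. That of BCL2 held none of the motifs. That of BCL2A1 held a TATA box and a C/EBP-ATF element, 70 and 63 bases before the start. A match of letters is a description and does not show that a factor binds.

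MCL1, the guardian whose protein turns over fastest, rose on its brightest probe sets. The brightest, 11715483_s_at, read 12.21, 12.21, 12.24 and 12.22 in control replicates 1 to 4, and 12.64, 12.64, 12.50 and 12.60 in the podofilox replicates. The control arrays lay close together, and every podofilox array lay above them. The difference was 0.37 (SE 0.046, adjusted p = 0.000516 by limma), a 1.29-fold rise with a 95% interval of 1.21 to 1.39. This probe set is of the _s_at kind, which can bind transcripts of more than 1 gene. Probe set 11715484_a_at, not of that kind, gave nearly the same, from 10.03, 10.12, 10.07 and 10.02 to 10.46, 10.47, 10.44 and 10.36. Its difference was also 0.37 (SE 0.047, adjusted p = 0.000521 by limma), and both calls held when any 1 array was left out.

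The 4 other MCL1 probe sets behaved less evenly. Probe set 11715482_a_at read 11.29, 11.38, 11.01 and 11.13 in control cells and 11.39, 11.55, 11.93 and 11.77 with podofilox, so the groups were separated by a narrow gap. It rose by 0.46 (SE 0.12, adjusted p = 0.0213 by limma), and the call was lost without control replicate 3, control replicate 4 or podofilox replicate 4 (adjusted p at most 0.0601). Probe set 11715487_a_at had the same shape, with 9.85, 9.85, 9.50 and 9.62 in control cells and 9.86, 9.99, 10.62 and 10.23 with podofilox. Its difference of 0.47 (SE 0.15) was the largest of all member probe sets and did not pass the test (adjusted p = 0.0532 by limma), since its arrays spread widely. On both of these probe sets podofilox array 3 read highest. The 3′ minus 5′ difference of the array's actin control probe sets, a measure of RNA integrity, was also highest on that array, at 0.265 against 0.107 to 0.199 on the other arrays. The same measure for GAPDH did not single out that array, at -0.150 against -0.155 on podofilox array 4 and -0.131 to -0.0812 on the rest. The part of either in these values was not tested.

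The remaining pair, 11715485_a_at and 11715486_x_at, share the same reference record in the platform annotation. The first read 8.99, 8.87, 9.07 and 9.08 in control cells and 9.14, 9.07, 8.97 and 9.17 with podofilox. The second read 7.84, 7.93, 8.06 and 7.98 against 8.07, 8.15, 7.98 and 8.08. The groups overlapped on both, and the differences of 0.089 and 0.12 did not pass the test (adjusted p = 0.381 and 0.218 by limma). Compared with the brightest MCL1 probe set, array by array, their change was smaller by 0.28 (95% interval 0.15 to 0.42) and 0.26 (95% interval 0.13 to 0.38). An exact two-sided permutation test over the 70 arrangements of the arrays gave p = 0.0286 for each gap, the smallest possible. After adjustment over the 22 comparisons of this kind among the members it was 0.0898. Of these comparisons 7 had the smallest possible p, and more would be needed for any to pass, so this test cannot decide. By limma over the same differences in all genes with several probe sets, of which 3.65% were past the test, both gaps passed (adjusted p = 0.0358 and 0.0361), and each call was lost when any 1 of 7 arrays was dropped, with control replicate 2 the exception for the first and control replicate 1 for the second (adjusted p at most 0.113 and 0.114). MCL1 pre-mRNA is known to be spliced into a long form that protects cells and a short form that does not. The positions of the probes were not used here, so the values do not separate these forms.

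**Figure D2:**
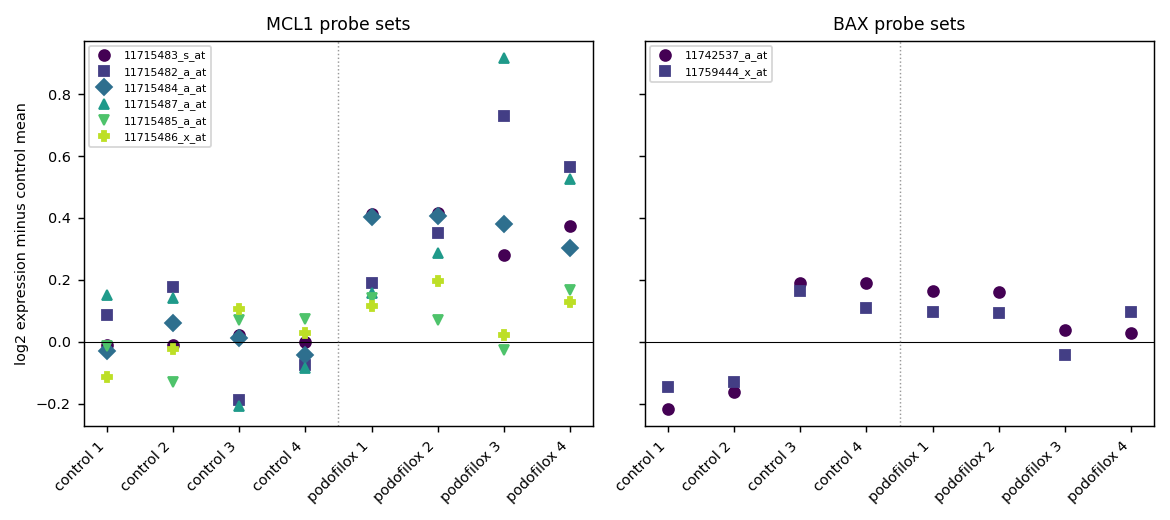
Log2 expression minus the control mean (vertical axis) on each of the 8 arrays for the 6 MCL1 probe sets (left) and both BAX probe sets (right), 1 symbol per probe set. MCL1 11715483_s_at and 11715484_a_at sit evenly higher on all podofilox arrays, 11715482_a_at and 11715487_a_at reach their highest value on podofilox array 3, and BAX is low on control arrays 1 and 2.

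BCL2L1 encodes BCL-xL, a stable guardian of mitochondria, and by splicing a shorter form, BCL-xS, that promotes death. It was the member whose probe sets all rose. The brightest, 11739958_x_at, read 10.16, 10.19, 10.16 and 10.15 in control cells and 10.39, 10.38, 10.35 and 10.30 with podofilox, a rise of 0.19 (SE 0.042, adjusted p = 0.0108 by limma). Probe set 11739957_a_at went from 8.26, 8.41, 8.33 and 8.31 to 8.79, 8.72, 8.60 and 8.64, a rise of 0.36 (SE 0.056, adjusted p = 0.00175 by limma). Probe set 11759514_at went from 8.22, 8.30, 8.24 and 8.23 to 8.85, 8.75, 8.50 and 8.72, a rise of 0.46 (SE 0.071, adjusted p = 0.00171 by limma). On each of the 3 probe sets every podofilox array lay above every control array, and the calls held without any 1 array. In fold terms the rises were 1.14, 1.28 and 1.37. The brightest probe set, of the _x_at kind, whose probes may also bind other transcripts, gave the smallest rise. Its gaps to the other BCL2L1 probe sets were 0.17 and 0.26. By exact permutation both had the smallest possible p, 0.0286 (adjusted p = 0.0898 each), so that test cannot decide here either. By limma neither gap passed the test (adjusted p = 0.13 and 0.0836).

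BCL2L2 encodes BCL-w, a guardian related to BCL-xL. Its brightest probe set, 11717171_at, read 9.86, 9.94, 9.82 and 9.88 in control cells and 9.98, 9.95, 9.90 and 9.91 with podofilox, which overlap, and its difference was 0.060 (95% interval -0.042 to 0.16, adjusted p = 0.418 by limma). The dimmer 11751290_a_at went from 6.34, 6.46, 6.39 and 6.34 to 6.68, 6.63, 6.60 and 6.53 without overlap and rose by 0.23 (SE 0.051, adjusted p = 0.0110 by limma). The gap between these probe sets, 0.17, had the smallest possible p by exact permutation, 0.0286 (adjusted p = 0.0898), a test that cannot decide here. By limma the gap did not pass the test (adjusted p = 0.103). The third, 11717172_a_at, differed by 0.071, with podofilox array 3 (5.24) below all control arrays and the other podofilox arrays (5.65 to 5.84) above them. Without podofilox array 3 the difference was 0.20 and passed the test (adjusted p = 0.0409 by limma).

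BCL2, the founding guardian of the family, showed no change that passed the test on any of its 6 probe sets, all of them under 7 on every array. The brightest, 11738350_a_at, read 6.71, 6.55, 6.77 and 6.69 in control cells and 6.78, 6.61, 6.49 and 6.70 with podofilox, a difference of -0.034 (95% interval -0.19 to 0.12, adjusted p = 0.793 by limma). The 6 differences ran from -0.12 to 0.088, and the groups overlapped on every probe set. The dimmest, 11721375_a_at, 11721376_at and 11721377_x_at, lay at 4.24, 3.85 and 3.66 in control cells, where a change in mRNA could be missed. BCL2A1, a guardian mostly known from blood and inflammatory cells, was the dimmest member. Its probe sets lay at 3.39 ± 0.044 and 3.27 ± 0.11 in control cells and at 3.44 ± 0.023 and 3.42 ± 0.089 with podofilox (SD, n = 4 each), within the dimmest 5.24% of single-gene probe sets. The differences, 0.052 and 0.16, did not pass the test (adjusted p = 0.465 and 0.136 by limma). At such dim signal little of a change in mRNA could show, and the table carries no detection calls.

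**Figure D3:**
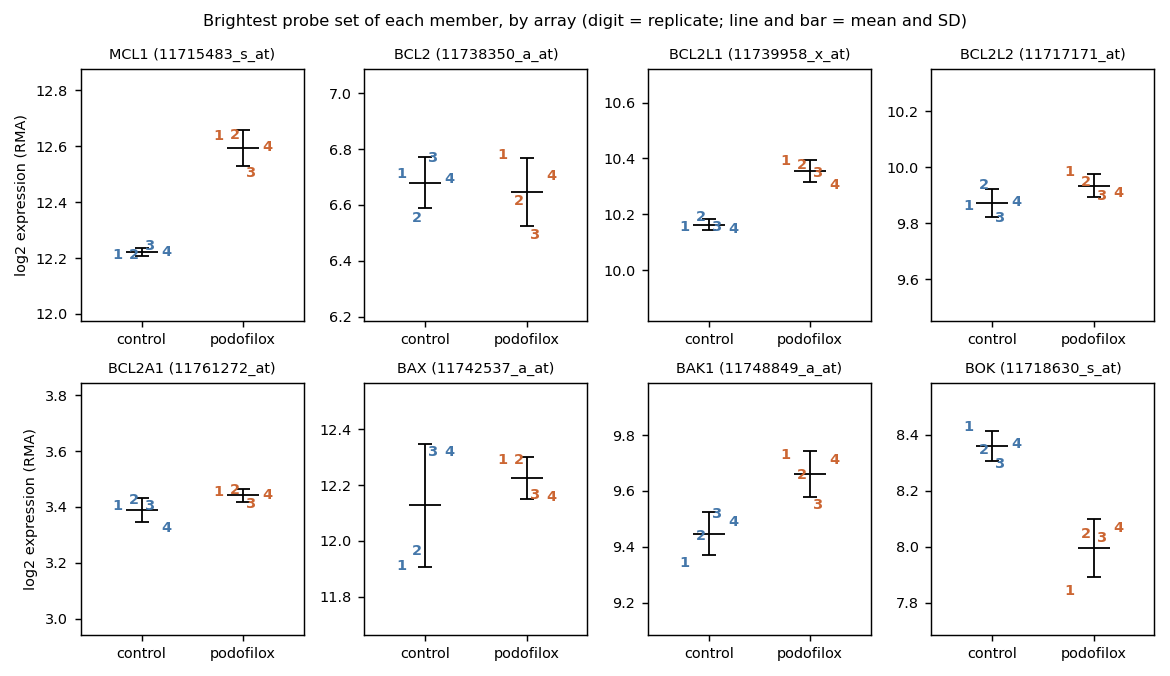
Log2 expression of the brightest probe set of each of the 8 members; digits mark replicates 1 to 4 of control (blue) and podofilox (orange), and the line and bar are the mean and SD. Each panel spans the same height but sits at its own level; MCL1, BCL2L1 and BAK1 lie higher and BOK lower with podofilox, with no overlap, while the control arrays of BAX split into a low and a high pair.

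Among the effectors, BAK1, which sits in the mitochondrial membrane also in healthy cells, was higher. The brightest probe set, 11748849_a_at, read 9.34, 9.44, 9.52 and 9.49 in control cells and 9.73, 9.66, 9.55 and 9.71 with podofilox. The groups were apart by a narrow margin. The rise of 0.21 (SE 0.058, adjusted p = 0.0281 by limma) was lost when any 1 array other than control replicate 3 or podofilox replicate 3 was dropped (adjusted p at most 0.0761). Probe set 11752413_a_at went from 8.43, 8.57, 8.54 and 8.50 to 8.82, 8.76, 8.79 and 8.74, a rise of 0.27 (SE 0.047, adjusted p = 0.00339 by limma). Probe set 11746208_a_at went from 8.44, 8.54, 8.41 and 8.59 to 8.67, 8.80, 8.78 and 8.71, a rise of 0.24 (SE 0.055, adjusted p = 0.0121 by limma). These calls held without any 1 array. Probe sets 11732515_x_at and 11762913_a_at differed by 0.19 each and did not pass the test (adjusted p = 0.0529 and 0.134 by limma). The 5 BAK1 differences thus lay within 0.19 to 0.27, and none of the 4 gaps to the brightest probe set passed the test between probe sets, nor had an unadjusted p under 0.05, by exact permutation or limma.

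BAX, which moves from the cytosol to mitochondria when cells die, did not pass the test. Probe set 11742537_a_at read 11.91, 11.96, 12.32 and 12.32 in control replicates 1 to 4, and 12.29, 12.29, 12.17 and 12.16 in the podofilox replicates. Control arrays 1 and 2 were low, control arrays 3 and 4 were the highest of all, and the podofilox arrays lay between them. The pooled difference was 0.098 (95% interval -0.12 to 0.31, adjusted p = 0.542 by limma). Within arrays numbered 1 and 2 it was 0.35 (adjusted p = 0.0394 by limma), and within arrays numbered 3 and 4 it was -0.16 (adjusted p = 0.153 by limma). The dimmer BAX probe set, 11759444_x_at, followed with 9.45, 9.46, 9.76 and 9.70 against 9.69, 9.69, 9.55 and 9.69, and with 0.23 and -0.11 within the array pairs.

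A test of the array numbers was added after these values were seen, so its unadjusted p-values only describe the pattern. The labels do not show that control and podofilox arrays of the same numbers belong together. Whether the difference varied between arrays 1 and 2 and arrays 3 and 4 was tested as an interaction by limma over all probe sets. For BAX 11742537_a_at it differed by -0.51 (SE 0.080, unadjusted p = 0.000193, adjusted p = 0.113). For BAX 11759444_x_at it differed by -0.34 (SE 0.093, unadjusted p = 0.00598, adjusted p = 0.188). For MCL1 11715482_a_at, which went from 0.14 in the first pair to 0.78 in the second, it differed by 0.64 (SE 0.12, unadjusted p = 0.000743, adjusted p = 0.155). For MCL1 11715487_a_at, which went from 0.077 to 0.87, it differed by 0.79 (SE 0.17, unadjusted p = 0.00152, adjusted p = 0.170). Of the 30 member probe sets these 4 had an unadjusted p under 0.05 and 0 passed after adjustment by limma, where 15.8% and 0.0311% of all probe sets did. The labels do not name a batch. The difference of MCL1 11715483_s_at was 0.43 and 0.32 within the array pairs, and that of 11715484_a_at was 0.39 and 0.36.

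BOK, an effector that resembles BAX and BAK1 and is known to be controlled by degradation of its protein, was the only member with a probe set that fell. Probe set 11718630_s_at read 8.43, 8.35, 8.30 and 8.37 in control cells and 7.84, 8.04, 8.03 and 8.07 with podofilox. Every podofilox array lay below every control array, and the difference was -0.36 (SE 0.060, adjusted p = 0.00232 by limma), 1.29-fold lower, a call that held without any 1 array. The other BOK probe sets changed little, with 7.59 ± 0.056 and 7.52 ± 0.098 on 11718629_at and 7.35 ± 0.11 and 7.34 ± 0.054 on 11718628_a_at (SD, n = 4 each). Their differences of -0.077 and -0.0087 did not pass the test (adjusted p = 0.412 and 0.942 by limma). They exceeded the change of the brightest probe set by 0.29 and 0.35, with p = 0.0286 each by exact permutation (adjusted p = 0.0898). By limma the larger gap passed (adjusted p = 0.0302) and the other did not (adjusted p = 0.0868), and the larger was lost when any 1 array other than control replicate 3 or podofilox replicate 3 was dropped (adjusted p at most 0.0843). The probe set that fell is of the _s_at kind, which can bind transcripts of more than 1 gene, so a fall of BOK rests on that 1 probe set.

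Over all members, 12 of the 30 probe sets had groups that did not overlap, 11 higher and 1 lower. Of all single-gene probe sets, 24.2% did not overlap, 10.5% higher and 13.8% lower. Of the 20 guardian probe sets, 7 rose and 0 fell by limma, and 0 fell at an unadjusted p under 0.05, with a median difference of 0.10. Of the 10 effector probe sets, 3 rose and 1 fell with a median difference of 0.15. Among all single-gene probe sets 7.83% rose and 10.2% fell. Probe sets of 1 gene read the same mRNA and are not separate evidence. By gene, with each gene read from its brightest probe set, 3 members rose and 1 fell of 8, against 8.55% and 12.5% of all 18132 genes.

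The other genes of the pathway were read from their brightest probe set and tested among all 18132 genes, of which 21% changed. Of 50 measured genes in 6 lists, 11 rose and 10 fell, with a median difference of -0.0062 against 0.0069 over all genes. The BH3-only genes, whose proteins occupy the guardians, split. PMAIP1, whose protein NOXA binds MCL1, rose by 0.74 (SE 0.044, adjusted p = 1.07e-05 by limma) and BBC3, whose protein PUMA binds all guardians, rose by 0.53 (SE 0.045). BIK fell by 0.23 (SE 0.041) and BAD fell by 0.19 (SE 0.049), while BCL2L11 (0.032) and BID (-0.043) did not pass the test. Of the 4 BID probe sets 1 fell, and their mean did not pass (-0.10, adjusted p = 0.062 by limma). BAD was no longer past the test without control replicate 3, control replicate 4 or podofilox replicate 4 (adjusted p at most 0.0627), or when probe sets of the _x_at and _s_at kind were left aside (adjusted p = 0.0984). In all, 2 of 8 rose and 2 fell.

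Of 5 other BCL2 homologues, 2 rose and 1 fell. BCL2L14 and BCL2L15 rose by 0.37 (SE 0.071) and 0.32 (SE 0.049), and BCL2L12 fell by 0.14 (SE 0.041), lost when any 1 array other than control replicate 3 or podofilox replicate 2 was dropped (adjusted p at most 0.108) and with median centring (adjusted p = 0.0869). BCL2L10 (0.017) and BCL2L13 (-0.0065) did not pass the test, though 1 of the 7 BCL2L13 probe sets fell. Among 10 measured genes of the apoptosome, the caspases and their inhibitors, 2 rose and 1 fell. CASP6, an executioner caspase, fell by 0.49 (SE 0.046, adjusted p = 0.000120 by limma). BIRC2, the ubiquitin ligase cIAP1, rose by 0.24 (SE 0.038). DIABLO, which neutralises such inhibitors, rose by 0.15 (SE 0.047), but its 1 probe set did not pass among all single-gene probe sets. Its call was lost when any 1 array other than control replicate 3 or podofilox replicate 3 was dropped (adjusted p at most 0.116 by limma). Normalizing by quantiles once more (adjusted p = 0.0810), a term for array pairs (0.060) and leaving out _x_at and _s_at probe sets (0.0595) also ended it. CYCS, which encodes cytochrome c, and APAF1, the scaffold of the apoptosome, differed by 0.066 and 0.12 and did not pass the test. Of the 4 APAF1 probe sets 2 rose, and their mean rose by 0.18 (adjusted p = 0.0377 by limma).

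The death receptor arm reaches caspases from the cell surface. Of its 7 genes 2 rose and 0 fell by limma, and 0 fell also at an unadjusted p under 0.05. CFLAR, which encodes the caspase-8 inhibitor FLIP, rose by 0.56 (SE 0.046, adjusted p = 5.21e-05 by limma) on its brightest probe set. Of its 9 probe sets 3 rose, and their mean rose by 0.23 (adjusted p = 0.00490 by limma). TNFRSF10B, the TRAIL receptor DR5, rose by 0.30 (SE 0.081), and its difference was 0.10 in the first array pair and 0.51 in the second. It was no longer past the test without control replicate 3 or 4 or podofilox replicate 2, 3 or 4 (adjusted p at most 0.0675). TNFRSF10A (0.079) and FAS (0.029) did not pass the test.

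Genes that set how long MCL1 protein lasts were split: of 12, 2 rose and 3 fell. MARCHF5, a mitochondrial ubiquitin ligase, rose by 0.33 (SE 0.044, adjusted p = 0.000679 by limma), and FBXW7, which recognises phosphorylated MCL1, rose by 0.23 (SE 0.047). HUWE1, the ubiquitin ligase also called MULE, fell by 0.24 (SE 0.047) as read from the brightest, but the mean of its 3 probe sets differed by -0.0059 (adjusted p = 0.961 by limma). BTRC fell by 0.20 (SE 0.049), and its call ended without probe sets of the _x_at and _s_at kind (-0.086, adjusted p = 0.268 by limma). The kinase gene GSK3A, named after its value was seen, fell by 0.20 (SE 0.051), lost without control replicate 2, 3 or 4 or podofilox replicate 4 (adjusted p at most 0.0691) and when its probe sets were averaged (adjusted p = 0.0737). CDC20 (-0.039) and the deubiquitinase USP9X (-0.010) did not pass the test.

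Of 8 measured partners of the effectors at mitochondria and the endoplasmic reticulum, 1 rose and 3 fell. VDAC2, a channel of the outer membrane known to bind BAK1 and BAX, rose by 0.23 (SE 0.040, adjusted p = 0.00271 by limma). MTCH2, a receptor for truncated BID, fell by 0.27 (SE 0.042), and the mean of both its probe sets fell by 0.16 (adjusted p = 0.0414 by limma). VCP, which extracts proteins for degradation, fell by 0.18 (SE 0.042) and VDAC3 fell by 0.15 (SE 0.040), lost without control replicate 1, 3 or 4 or podofilox replicate 4 (adjusted p at most 0.0595). With each array centred on the median, VCP lost its call (-0.16, adjusted p = 0.0513 by limma). VDAC1 (-0.053) and ITPR1 (-0.092) did not pass the test.

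**Figure D4:**
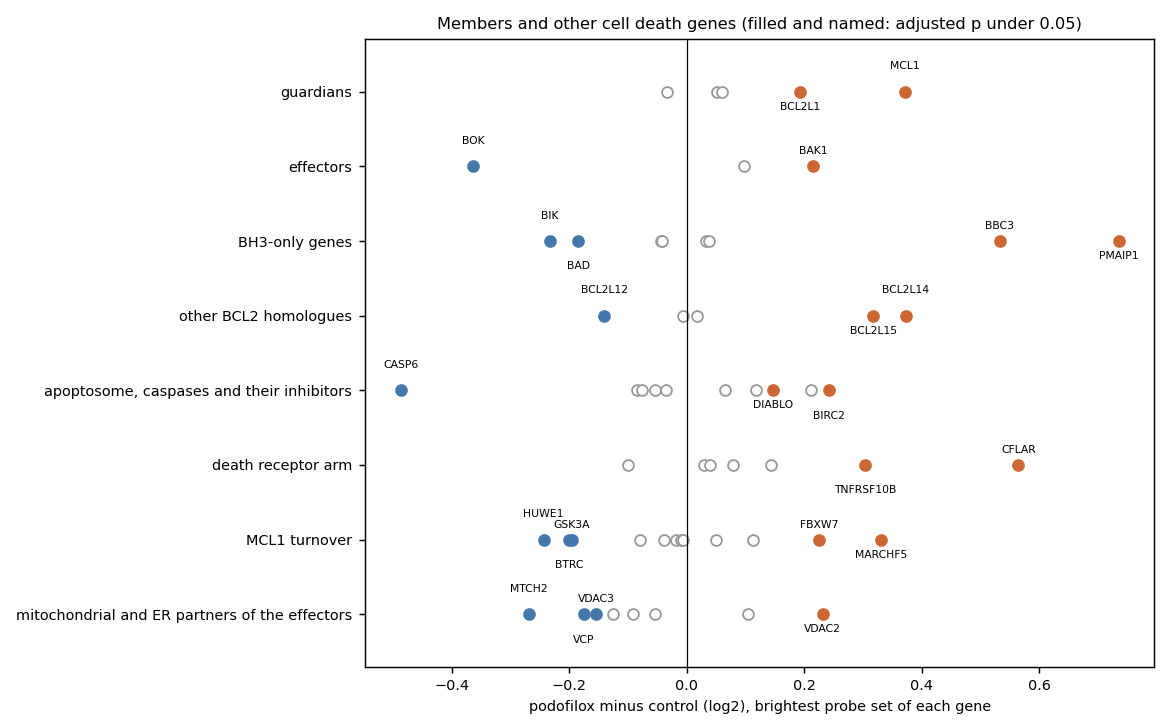
Difference between podofilox and control (log2, horizontal axis) for each measured gene, read from its brightest probe set, by list. Filled and named points passed the test; rises and falls occur side by side in most lists, from CASP6 at -0.49 to PMAIP1 at 0.74.

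The genes whose pattern over the 8 arrays was most like that of the brightest MCL1 probe set were ALDOC (Pearson r = 0.997), SNHG32 (0.997), CDKN2D (0.996), FSTL3 (0.995) and CDKN1A (0.995). With 4 arrays in each of 2 groups, such values mostly reflect the difference between the groups. ALDOC, an aldolase, went from 9.75 to 10.11, and CDKN1A, which encodes the cell cycle inhibitor p21, from 11.95 to 12.40.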

How the data were processed

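The deposited table holds log2 expression values of 49395 probe sets on 8 arrays, made by the authors with RMA (background correction, quantile normalization and summary of probe sets) per the submitters' processing notes; its software and options were not stated. Values ran from 2.64 to 15.0, which fits a log2 scale. Probe sets were named from the platform annotation: 44988 had 1 gene, 1832 several, 2473 none here, and 102 were controls. The Entrez identifiers of all 8 members were found in RefSeq (GRCh38.p14). Array number limits the precision.

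The test was limma (version 3.58.1, R 4.3.3; lmFit and eBayes with a term for group and no filter), on all single-gene probe sets for the members and on the brightest probe set per gene for other genes, with Benjamini-Hochberg adjustment. Errors are moderated standard errors (SE) and intervals cover 95%. Changes of probe sets of 1 gene were compared by exact permutation over 70 arrangements. Named genes were all member probe sets and, in each list, up to 4 genes past the test with the smallest p and 2 not past it. Members, lists, the split of arrays by number and alternatives were chosen with earlier results of these data known. The interaction with array pair and limma on gaps between probe sets were added after seeing the data. The fits were tested on simulated data. Same-numbered arrays did not deviate together (correlations of deviations -0.138, 0.0394, -0.254 and 0.0392), so numbers were not taken as pairs. Figures were drawn with matplotlib 3.10.9.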

Additional observations from a re-analysis of the deposited data

Results flagged for a closer look

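In a search of each member probe set for an array far from the other 3 of its group, 4 of 60 groups stood out, where chance gives about 1 in 20. Podofilox array 4 read 3.96 on BCL2 11721376_at, against 3.69 to 3.71 on the other podofilox arrays, and 3.71 on BCL2 11721377_x_at, against 3.49 on each of the others. Podofilox array 3 read 9.55 on BAX 11759444_x_at, against 9.69 on each of the others. Podofilox array 1 read 7.84 on BOK 11718630_s_at, against 8.03 to 8.07 on the others, and without that array BOK still fell on this probe set.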

How the results depend on the processing

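Alternatives were another round of quantile normalization, median centring, a filter on dim probe sets, an intensity trend, array weights, a term for array pairs, each array pair alone, other choices of probe sets and leaving out each array. With 4 arrays a group, or 2 within an array pair, small changes could be missed. Within arrays 1 and 2, 5 member probe sets, 6 pathway genes, 1010 genes and 2705 probe sets in all passed (rises for members and pathway), and 1 pathway gene fell. Within arrays 3 and 4, 5 member probe sets and 1 member gene rose, 5 pathway genes fell, and 2300 genes and 4642 probe sets changed. Without _x_at and _s_at probe sets, 0 member probe sets and 0 member genes fell, 6 pathway genes fell and 5243 probe sets changed. Limma called 3 gaps between probe sets where the permutation test, which could hardly pass after adjustment, called 0. On leaving out 1 array, 6 to 10 pathway genes fell. Some calls were gained. Against 10 member probe sets, 12 rose on normalizing by quantiles once more, 12 with the filter, 11 with the intensity trend and 13 with array weights. MCL1 11715487_a_at rose with each of these but the trend (adjusted p = 0.0178 to 0.0424 by limma). BAK1 11732515_x_at rose with each of them (adjusted p = 0.0189 to 0.0324 by limma), and BAK1 11762913_a_at with array weights (adjusted p = 0.030 by limma).

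Same-numbered arrays were not shown to be paired. With the replicate block, 5581 probe sets and 2741 genes changed in all, against 8112 and 3810 without it. Of the member probe sets 8 rose, 5 pathway genes fell, and MCL1 11715482_a_at (adjusted p = 0.0692) and BAK1 11748849_a_at (adjusted p = 0.0850) were no longer past the test by limma, nor were BAD, BCL2L12, DIABLO, TNFRSF10B, BTRC, GSK3A and VDAC3 (adjusted p = 0.0537 to 0.125).

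The member differences that changed sign had not passed the test. Within arrays 1 and 2 they were 0.063 (BCL2 11738350_a_at, also by gene), 0.033 (BCL2 11738351_x_at), 0.091 (BCL2 11721375_a_at), 0.023 (BOK 11718629_at) and 0.018 (BOK 11718628_a_at). Within arrays 3 and 4 they were -0.0012 (MCL1 11715485_a_at), -0.16 (BAX 11742537_a_at, also by gene) and -0.11 (BAX 11759444_x_at). BCL2 11721375_a_at was 0.0030 with median centring and 0.010 with array weights, and BOK 11718628_a_at was 0.013 on normalizing again. On leaving out 1 array the ranges were -0.077 to 0.018 (BCL2 11738350_a_at, also by gene), -0.074 to 0.037 (BCL2 11738351_x_at), -0.031 to 0.024 (BCL2 11721375_a_at), -0.0057 to 0.20 (BCL2L2 11717172_a_at) and -0.063 to 0.018 (BOK 11718628_a_at). Named pathway genes that had not passed the test also changed sign, within arrays 1 and 2 CYCS (-0.036), BCL2L10 (-0.010) and FAS (-0.0016), and within arrays 3 and 4 TNFRSF10A (-0.017), VDAC1 (0.059) and ITPR1 (0.0056). With the mean of probe sets CYCS (-0.016), BCL2L13 (0.012) and CDC20 (0.047) did, and without _x_at and _s_at probe sets CYCS (-0.14) and CDC20 (0.061). Their signs under the other alternatives are not given. The cause was not tested.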
